A study of Mus musculus with 12 samples.

Results

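The genotype by ENU interaction in mouse liver is the ENU effect in Tert-/- mice (ENU minus saline) minus the ENU effect in wild-type mice. A value above 0 means that the ENU effect was more positive in Tert-/- liver, and a value below 0 that it was more negative. The interaction was computed on the log2(FPKM + 1) scale for every gene with at least 1 FPKM (fragments counted in a gene, scaled for its length and for library size) in at least 3 libraries, which kept 12434 of the 49584 genes in the deposited table, over 12 of 12 libraries. A repeat without Tert-/- saline replicate 2, a library that stood apart, tested 12395 genes.

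Livers came from age-matched mice of the strain C57BL/6/129/SvJ, wild type (WT) or G1 Tert-/-, with 3 libraries in each of 4 groups. G1 is, in the usual naming of telomerase mutants, the first homozygous generation, and the labels name no restriction of the deletion to a tissue. Mice of each genotype received an intraperitoneal injection of ENU (N-ethyl-N-nitrosourea) at 150 µg per g body weight or of saline, and livers were taken 24 h later. The groups were thus WT saline, WT ENU, Tert-/- saline and Tert-/- ENU. The labels do not state that each library came from a separate mouse; where libraries shared a mouse, the p-values would reflect technical spread.

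ENU is an alkylating mutagen that transfers ethyl groups to DNA bases. Damaged liver cells stabilise the transcription factor p53, which induces genes of cell cycle arrest and apoptosis together with its own inhibitor Mdm2. Tert is the catalytic subunit of telomerase, which extends chromosome ends, and mice of the first homozygous generation still carry long inherited telomeres. Since an interaction uses 4 group means, a single group that stands apart is enough to move it away from 0, and the levels of each leading gene are therefore given in all libraries.

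The libraries held 30053737 to 43680169 reads in genes. Tert-/- saline replicate 2 had reads in 17485 genes, and each of the other 11 libraries in 19575 to 20309. The share of reads in the 20 top genes was 29.53% for that replicate and 17.36 to 21.69% for the rest. The typical gene of that replicate was at 0.654 of its geometric mean over libraries. All 20 hepatocyte markers listed passed the filter. For Tert itself the values were 3.18, 3.22 and 1.61 FPKM in WT saline, 6.23, 5.69 and 4.70 in WT ENU, 0.443, 0.304 and 0.734 in Tert-/- saline and 1.62, 1.23 and 1.11 in Tert-/- ENU. Each Tert-/- library was thus below each wild-type library of the same treatment, while ENU libraries were above saline libraries in both genotypes. The interaction for Tert was -0.22 (SE 0.30, 95% interval -0.88 to 0.44), and its sign was not stable to the pseudocount (0.23 at a pseudocount of 0.1).

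No gene passed the interaction test at an adjusted p of 0.05 (limma, Benjamini-Hochberg over all genes tested, 0% called). At an unadjusted p of 0.05 there were 844 genes, 6.79% of those tested, of which 600 were above 0 (4.83%) and 244 below 0 (1.96%). The lowest adjusted p was 0.206. Without Tert-/- saline replicate 2 the count past the threshold was also 0 (0% called), with 1649 genes at an unadjusted p of 0.05 (13.3%), 789 above 0 (6.37%) and 860 below 0 (6.94%), and a lowest adjusted p of 0.119. A count of 0 in any gene list below follows from this and is no result about its members. The spread behind the test was wide, with a median standard error of 0.32 over genes for all 12 libraries and 0.21 without that library. The 95% interval reached less than 1 on the log2 scale to either side of the estimate in 10271 genes (82.6%), and its median half-width was 0.70, or 0.46 without the library.

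The bulk of the estimates moved with the same library. Over all genes tested the median interaction was 0.15, with 8225 genes (66.1%) above 0, and -0.01, with 48.2% above 0, without Tert-/- saline replicate 2. Rescaling all 12 libraries by median ratios brought the median to 0.01. Medians of gene groups are therefore to be read against 0.15 for all 12 libraries and against -0.01 for the 11. The middle 90% of estimates ran from -0.52 to 0.80, and 288 genes were above 1 and 96 below -1, none of which passed.

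The component effects of the same model had more calls than the interaction. ENU changed 124 genes in wild type (0.997%; 93 rose, 0.748%, and 31 fell, 0.249%) and 1191 in Tert-/- (9.58%; 1011 rose, 8.13%, and 180 fell, 1.45%). Without Tert-/- saline replicate 2 these were 1324 (10.7%) and 2131 (17.2%), although that library is in neither wild-type group. Tert-/- and wild type differed in saline at 623 genes (5.01%; 93 higher in Tert-/-, 0.748%, and 530 lower, 4.26%), and at 1604 (12.9%) without the library. After ENU 0 genes passed between the genotypes (0% called), with 541 genes at an unadjusted p of 0.05 (4.35%), or 0 and 1306 (10.5%) without the library. The deleted gene Tert was itself not called there (-1.49, SE 0.21, adjusted p = 0.175 by limma, or 0.0669 without the library). Its ENU libraries did not overlap between genotypes, so a count of 0 does not mean equal levels. A gene that passed in a single genotype is not shown to differ between genotypes, since the interaction is the test of that difference.

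**Figure D1:**
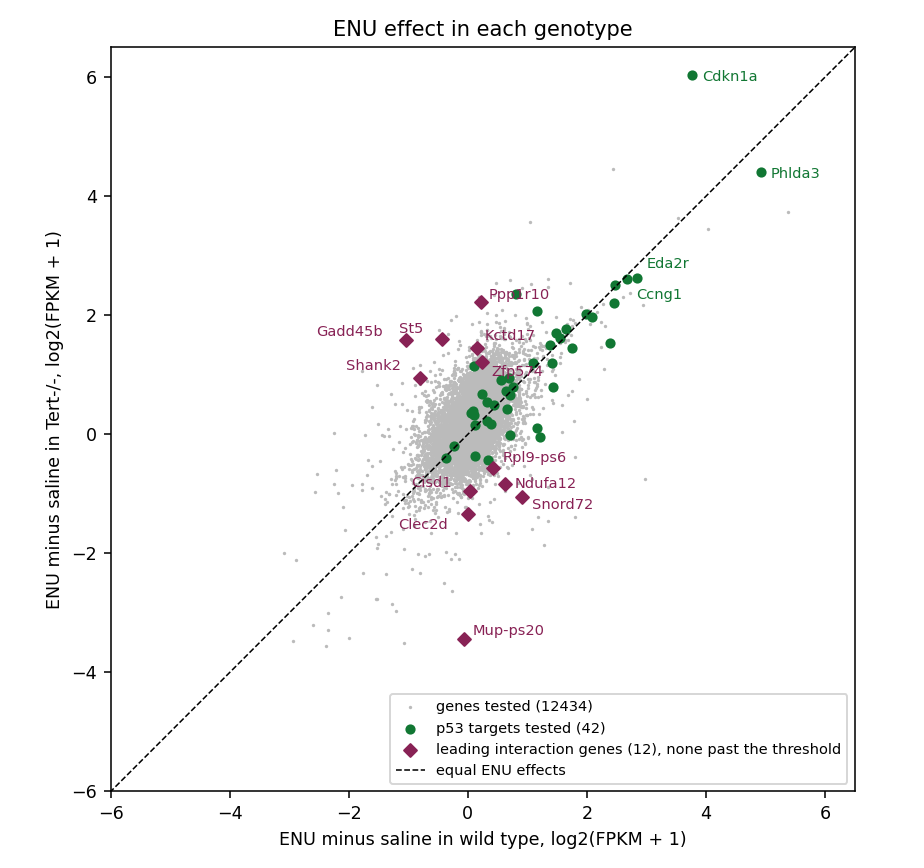
ENU effect in wild type (x axis) against ENU effect in Tert-/- (y axis), both as log2(FPKM + 1) differences, for 12434 genes (grey), 42 p53 targets (green) and the 12 leading interaction genes (purple); the dashed line marks equal effects. Most p53 targets have estimates above 0 in both genotypes, the leading interaction genes lie off the line with wild-type effects of -1.05 (Gadd45b) to 0.91 (Snord72), and none of the genes passed the interaction test.

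Ppp1r10, which encodes a nuclear regulatory subunit of protein phosphatase 1 (chromosome 17, 35916434 to 35932283), had the lowest adjusted p of the genes tested (coordinates here are those of the table, mm10). It was at 34.0, 25.2 and 27.6 FPKM in WT saline, 36.6, 24.9 and 41.1 in WT ENU, 11.9, 9.92 and 8.26 in Tert-/- saline and 51.5, 52.4 and 45.4 in Tert-/- ENU. The Tert-/- saline libraries lay below and the Tert-/- ENU libraries above all others, while both wild-type groups overlapped. The interaction was 1.9991 (SE 0.29, 95% interval 1.37 to 2.62, adjusted p = 0.206 by limma), and 1.9995 (SE 0.28, adjusted p = 0.144) without Tert-/- saline replicate 2. With library weights estimated gene by gene, a setting added after the data were seen, the adjusted p of the Ppp1r10 interaction was 0.0382, and those of Zfp574, Shank2, Ints1 and Map3k11 were 0.0478. These weights were 2.20, 0.045 and 0.48 for Tert-/- saline replicates 1, 2 and 3, so that replicate 1 carried most of that group. Over the alternatives tried, the adjusted p of the Ppp1r10 interaction ran from 0.00229, with REML library weights that left 1 library to stand for Tert-/- saline, to 1, with a clock covariate.

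Most other leading genes with positive values shared the low level in Tert-/- saline. Kctd17, an adaptor of ubiquitin ligases (chromosome 15, 78428564 to 78438909), was at 13.4, 12.2 and 11.96 FPKM in WT saline, 13.2, 17.6 and 11.9 in WT ENU, 4.87, 4.59 and 3.96 in Tert-/- saline and 13.5, 16.3 and 12.3 in Tert-/- ENU. Its 3 Tert-/- saline libraries were below the other 9, which overlapped each other, and the interaction was 1.30 (SE 0.25, adjusted p = 0.602 by limma). Zfp574, a zinc finger protein, was at 10.997, 9.45 and 9.29 FPKM in WT saline, 13.1, 11.9 and 10.7 in WT ENU, 5.25, 4.76 and 5.34 in Tert-/- saline and 14.2, 12.7 and 12.6 in Tert-/- ENU. Again the 3 Tert-/- saline libraries were the lowest, with an interaction of 0.97 (SE 0.20, adjusted p = 0.602). St5, a regulator of Rab GTPases, was at 29.7, 27.0 and 28.1 FPKM in WT saline, 34.0, 18.7 and 13.6 in WT ENU, 8.50, 5.77 and 5.19 in Tert-/- saline and 21.5, 27.7 and 16.3 in Tert-/- ENU. Tert-/- saline again lay below the other 9 libraries, and WT ENU libraries were spread widely around the remaining groups (interaction 2.04, SE 0.42).

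Shank2 and Gadd45b differed in more than that group. Shank2, a scaffold protein (chromosome 7, 144001928 to 144424494), was at 8.34, 5.96 and 6.62 FPKM in WT saline, 4.80, 3.19 and 2.80 in WT ENU, 1.19, 1.13 and 2.17 in Tert-/- saline and 3.58, 4.69 and 3.07 in Tert-/- ENU. WT saline was above and Tert-/- saline below all other libraries, so that the genotypes overlapped only after ENU (interaction 1.75, SE 0.32, 95% interval 1.05 to 2.45). Gadd45b, a stress-induced gene that takes part in growth arrest and DNA demethylation (chromosome 10, 80930091 to 80932204), was at 6.31, 1.34 and 4.09 FPKM in WT saline, 1.60, 1.18 and 0.741 in WT ENU, 0.493, 1.72 and 0.335 in Tert-/- saline and 2.93, 5.14 and 4.99 in Tert-/- ENU. The ENU libraries of Tert-/- lay above those of wild type, and the saline groups overlapped. Its interaction of 2.63 (SE 0.56, 95% interval 1.41 to 3.84) rested on 15 to 316 reads per library.

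The leading genes below 0 were mostly high in Tert-/- saline. Cisd1, an iron-sulphur protein of the outer mitochondrial membrane (chromosome 10, 71330480 to 71344954), was at 74.1, 78.6 and 83.8 FPKM in WT saline, 76.0, 88.2 and 77.1 in WT ENU, 128, 167 and 137 in Tert-/- saline and 73.3, 66.6 and 80.1 in Tert-/- ENU. The 3 Tert-/- saline libraries were above the other 9, and the interaction was -0.98 (SE 0.20, adjusted p = 0.602). Clec2d, a lectin that binds an inhibitory receptor of natural killer cells, was at 77.8, 135 and 100.05 FPKM in WT saline, 82.2, 121 and 107 in WT ENU, 210, 274 and 228 in Tert-/- saline and 94.1, 77.6 and 109 in Tert-/- ENU. Its order was that of Cisd1 (interaction -1.34, SE 0.31). Ndufa12, a subunit of respiratory complex I, was at 33.4, 37.2 and 36.8 FPKM in WT saline, 42.5, 54.0 and 74.2 in WT ENU, 85.8, 130 and 71.5 in Tert-/- saline and 46.5, 56.4 and 52.8 in Tert-/- ENU. ENU libraries were above saline libraries in wild type and below them in Tert-/- (interaction -1.45, SE 0.33, 95% interval -2.17 to -0.73).

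The remaining leading genes below 0 are uncertain for other reasons. Mup-ps20, a pseudogene of the near-identical major urinary protein family whose reads may be shared, was at 5.98, 4.52 and 2.77 FPKM in WT saline, 4.53, 3.15 and 4.59 in WT ENU, 29.1, 29.6 and 21.7 in Tert-/- saline and 3.84, 0.255 and 1.72 in Tert-/- ENU. Tert-/- saline lay above the other 9 libraries, with an interaction of -3.37 (SE 0.57, 95% interval -4.61 to -2.14, adjusted p = 0.455). Rpl9-ps6, a pseudogene of a ribosomal protein, had an interaction of -0.99 (SE 0.25) and also stood highest in Tert-/- saline, at 33.7, 43.7 and 31.2 FPKM. Snord72, a small nucleolar RNA, had an interaction of -1.97 (SE 0.44) on 2 to 15 reads per library.

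**Figure D2:**
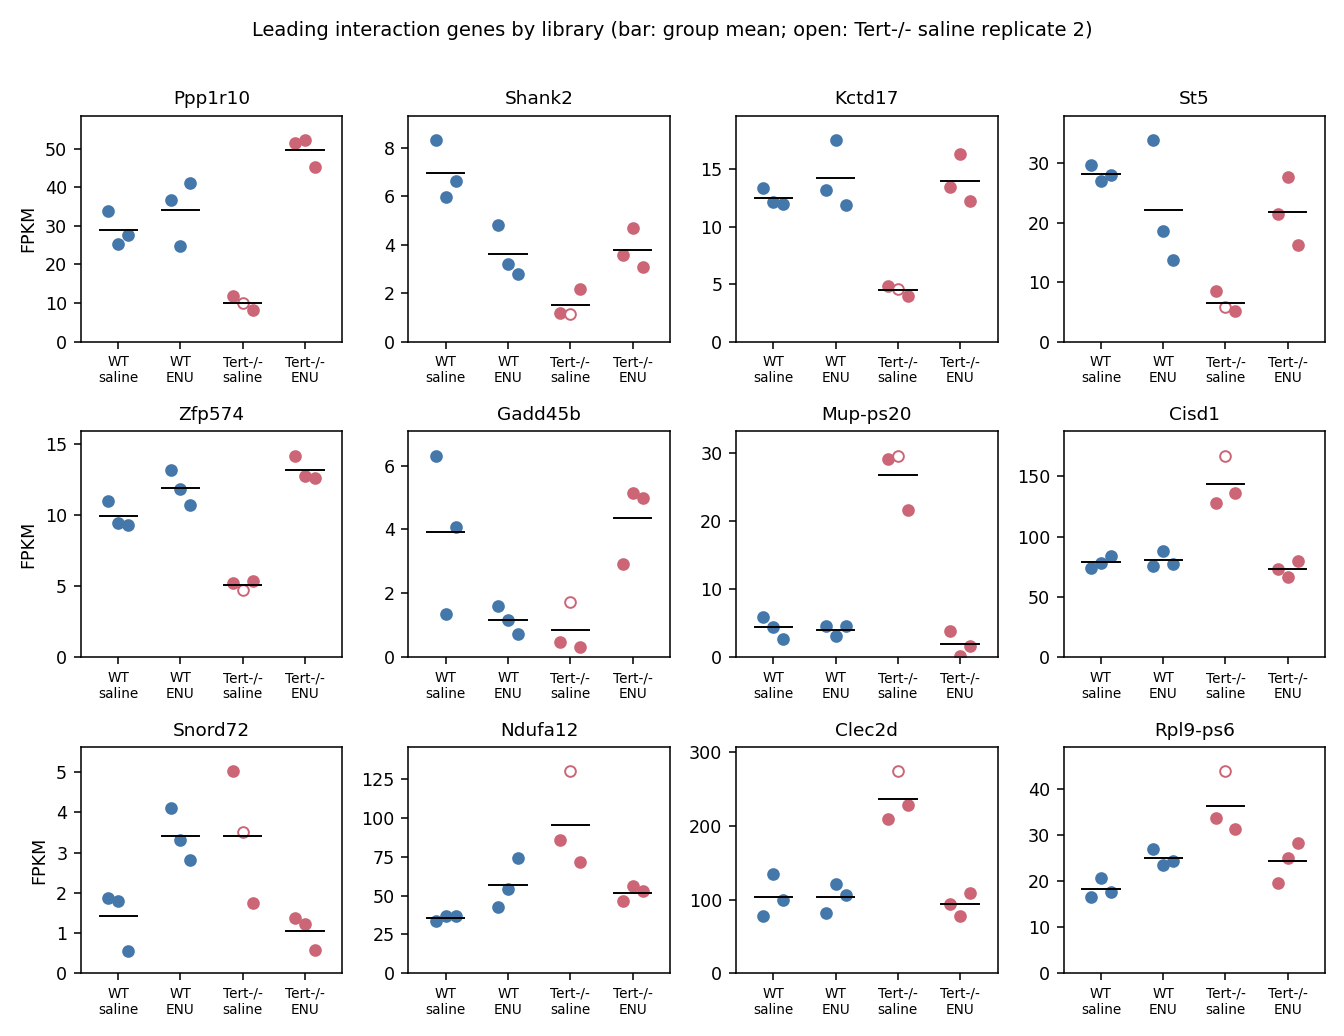
FPKM in each library (points) and group means (bars) for the 6 genes with the largest moderated statistics above 0 and the 6 below 0; open circles are Tert-/- saline replicate 2. In 9 of the 12 genes the 3 Tert-/- saline libraries are below or above all 9 others, and none of the 12 genes passed the interaction test. The 12 genes were chosen by the interaction itself, and the share of such genes among all genes tested was not counted. Tert-/- saline had the group mean farthest from the other groups in 55.3% of all genes tested, which is a different measure and does not give that share.

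Leaving out Tert-/- saline replicate 2 brought other genes to the front, still with none past the threshold. Among those above 0, Ints1, a subunit of the Integrator complex, was at 26.9, 25.9 and 26.6 FPKM in WT saline, 33.4, 36.8 and 39.0 in WT ENU, 12.8, 14.97 and 11.97 in Tert-/- saline and 32.8, 31.3 and 30.5 in Tert-/- ENU. ENU libraries were above saline libraries in each genotype, from a lower start in Tert-/- (interaction 0.83 without the library, SE 0.12, adjusted p = 0.144; 0.75, SE 0.19, with it). Map3k11, a kinase upstream of JNK, also had its ENU libraries above its saline libraries in each genotype, with 14.2, 15.9 and 13.1 FPKM in Tert-/- saline against 25.2 to 30.0 elsewhere (interaction 0.74, SE 0.12, without the library). Fabp7, a fatty acid binding protein, was at 2.94, 4.80 and 4.05 FPKM in WT saline, 0.711, 1.40 and 0.517 in WT ENU, 1.09, 2.88 and 0.873 in Tert-/- saline and 1.48, 1.36 and 1.42 in Tert-/- ENU. WT saline was above every other library, and the interaction was 1.69 (SE 0.29) without the library and 1.37 (SE 0.39) with it.

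Some genes below 0 in the smaller set had a level in the left-out library far from the rest of its group. Alg2, a mannosyltransferase of protein glycosylation, was at 13.4, 3.40 and 11.2 FPKM in Tert-/- saline, 10.9, 8.88 and 10.5 in WT saline, 14.3, 18.9 and 17.2 in WT ENU and 8.78, 9.30 and 8.30 in Tert-/- ENU. The value of 3.40 is replicate 2, and the interaction was -1.12 (SE 0.18) without it and -0.59 (SE 0.49) with it. Rmnd5a, a subunit of a ubiquitin ligase complex, was at 14.8 FPKM in replicate 2 and at 65.6 and 66.6 FPKM in the other Tert-/- saline libraries. Its interaction was -0.65 (SE 0.12) without the library and 0.05 (SE 0.60) with it. Sumo2, which encodes a small ubiquitin-like modifier and has processed copies that may share its reads, was at -1.22 (SE 0.22) and -0.91 (SE 0.36).

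Across genes with an unadjusted p under 0.05, Tert-/- saline was most often the group farthest from the mean of the other 3. It was the farthest, and the lowest, in 456 of the 600 genes above 0 (76%), and the farthest, and the highest, in 137 of the 244 below 0 (56.1%). Over all 12434 genes tested it was the farthest in 6876 (55.3%), as the lowest group in 5466 and as the highest in 1410. Without replicate 2 these were 582 of 789 (73.8%), 448 of 860 (52.1%) and 5334 of 12395 (43%). The last count held 3206 genes with Tert-/- saline lowest and 2128 with it highest. These counts describe genes chosen by the interaction itself and carry no test.

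Genes of the circadian clock were among those that differed between the groups. In liver, the activators Arntl and Clock drive Dbp, Tef and Ciart through E-box elements. The transcripts of Dbp and Arntl peak at roughly opposite times of day. Dbp, a clock output transcription factor, was at 1.45, 8.67 and 1.92 FPKM in WT saline, 6.74, 75.6 and 55.6 in WT ENU, 65.6, 82.8 and 86.7 in Tert-/- saline and 45.9, 31.6 and 66.1 in Tert-/- ENU. Arntl was at 9.63, 7.80 and 9.22 FPKM in WT saline, 10.1, 3.32 and 2.14 in WT ENU, 0.744, 0.264 and 0.636 in Tert-/- saline and 1.77, 2.94 and 0.843 in Tert-/- ENU. Tert-/- saline was below every other library for Arntl, and WT saline and Tert-/- saline did not overlap for Dbp. The interaction was -3.72 (SE 1.05, adjusted p = 0.67) for Dbp and 1.72 (SE 0.57, adjusted p = 0.67) for Arntl.

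The log2 ratio of Dbp to Arntl was -2.73, 0.15 and -2.26 in WT saline, -0.58, 4.51 and 4.70 in WT ENU, 6.46, 8.29 and 7.09 in Tert-/- saline and 4.69, 3.43 and 6.29 in Tert-/- ENU. All 3 Tert-/- saline libraries were above the other 9, and of the WT ENU libraries 1 lay in the range of WT saline and 2 in that of Tert-/- ENU. With this ratio as a covariate, 0 genes passed the interaction test and 150 had an unadjusted p under 0.05, against 844 without it; for the 11 libraries there were 0 and 615, against 1649. The ratio differed between the groups, so the covariate and the groups cannot be told apart fully, and the hour at which livers were taken is not given in the sources used here. Of the 19 clock genes tested, 9 had an interaction above 0 with a median of -0.01 (all genes 0.15), and 6 with a median of -0.48 (all genes -0.01) without Tert-/- saline replicate 2.

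Ciart, a repressor of the clock activators that, like Dbp and Arntl, was named here after its values were seen, was at 2.27, 0.526 and 0.702 FPKM in WT saline, 3.06, 6.68 and 10.4 in WT ENU, 27.2, 7.10 and 42.8 in Tert-/- saline and 10.8, 19.7 and 17.5 in Tert-/- ENU. The value of 7.10 is replicate 2, and the interaction was -2.18 (SE 0.80, adjusted p = 0.674) with it and -2.88 (SE 0.59, adjusted p = 0.192) without it. Tef, a transcription factor related to Dbp, was at 51.7, 66.4 and 36.0 FPKM in WT saline, 92.4, 176 and 208 in WT ENU, 174, 71.9 and 218 in Tert-/- saline and 214, 162 and 223 in Tert-/- ENU. WT saline was below every other library, and the interaction was -1.08 (SE 0.57), or -1.55 (SE 0.44) without replicate 2. Bhlhe40, an E-box repressor, had an interaction of 0.41 (SE 0.51).

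**Figure D3:**
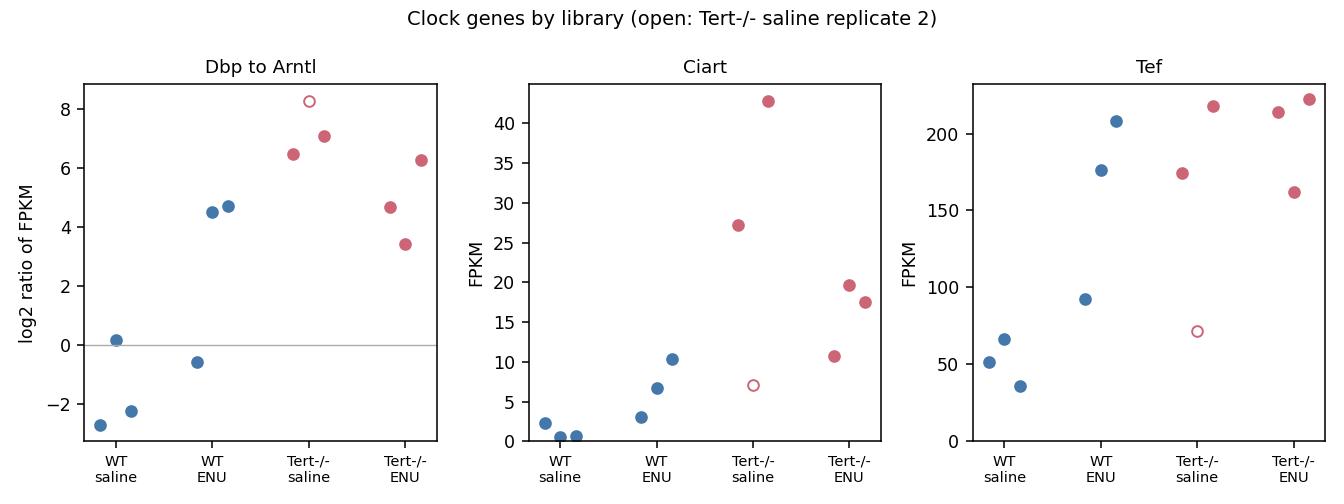
Log2 ratio of Dbp to Arntl, and FPKM of Ciart and Tef, in each library by group; open circles are Tert-/- saline replicate 2. The ratio is highest in the 3 Tert-/- saline libraries (6.46 to 8.29) and lowest in WT saline (-2.73 to 0.15), with 1 WT ENU library in the range of WT saline and 2 in that of Tert-/- ENU.

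The promoter windows of Ciart, Tef and Gadd45b are shown because they are the clock genes described above, and the single leading interaction gene, whose window holds the E-box. The E-box searched was CACGTG, which reads the same on both strands; it is in capitals. Windows run from 250 bases before to 50 after the start of the gene, on the strand of the gene, in the RefSeq annotation of GRCm38.p6. The Ciart window is chr3:95882179-95882478 on the minus strand, the Tef window chr15:81802423-81802722 on the plus strand and the Gadd45b window chr10:80929841-80930140 on the plus strand.
Ciart: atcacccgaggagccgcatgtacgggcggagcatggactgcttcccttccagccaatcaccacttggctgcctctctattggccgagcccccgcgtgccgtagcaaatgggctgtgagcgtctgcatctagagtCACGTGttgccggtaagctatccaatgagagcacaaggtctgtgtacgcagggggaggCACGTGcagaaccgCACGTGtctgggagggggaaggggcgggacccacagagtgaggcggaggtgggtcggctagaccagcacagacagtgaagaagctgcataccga
Tef: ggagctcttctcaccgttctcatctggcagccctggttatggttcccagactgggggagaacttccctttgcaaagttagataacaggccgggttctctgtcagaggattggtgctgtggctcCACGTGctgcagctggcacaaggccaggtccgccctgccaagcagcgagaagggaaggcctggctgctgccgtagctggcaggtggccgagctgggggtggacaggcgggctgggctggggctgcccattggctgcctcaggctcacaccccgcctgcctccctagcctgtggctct
Gadd45b: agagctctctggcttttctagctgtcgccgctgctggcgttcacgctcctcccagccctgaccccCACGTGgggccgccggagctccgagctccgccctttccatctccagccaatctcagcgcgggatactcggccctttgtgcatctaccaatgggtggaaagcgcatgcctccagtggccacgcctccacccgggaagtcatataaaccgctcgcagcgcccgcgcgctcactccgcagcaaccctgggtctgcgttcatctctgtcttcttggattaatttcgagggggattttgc

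The Ciart window held 3 matches, and those of Tef and Gadd45b 1 each. Those of Dbp and Arntl held 0. At least 1 match was present for 8.09% of the 27025 genes with a window and for 5 of the 16 clock genes with a window. Of the 19 leading interaction genes of both fits, 11 had a window, and 1 of these held a match. A match describes these letters only and is not a binding site.

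Part of the p53 targets rose after ENU in each genotype, and none passed the interaction test. Of all genes tested, 0.748% rose after ENU in wild type and 8.13% in Tert-/-, or 8.58% and 13% without Tert-/- saline replicate 2. Of 12 targets of cell cycle arrest and growth, 8 rose in wild type and 8 in Tert-/-; of 15 targets of apoptosis, 8 and 9 rose; of 15 feedback and DNA repair targets, 1 and 5 rose. Without that library the counts were 9 and 8, 12 and 10, and 5 and 6, with 1 further member of the arrest and of the feedback list falling in Tert-/- (4.21% of all genes fell there). The median interaction was 0.04 for arrest, -0.21 for apoptosis and 0.12 for feedback (all genes 0.15), and -0.23, -0.26 and -0.17 without the library (all genes -0.01). The arrest and feedback medians thus changed sign with the library, and also with median-ratio rescaling (-0.10 and -0.02), while the apoptosis median stayed below 0.

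Cdkn1a, which encodes the cyclin-dependent kinase inhibitor p21 (chromosome 17, 29090979 to 29100722), had the largest interaction of the p53 targets shown by library. It was at 32.5, 4.70 and 17.0 FPKM in WT saline, 285, 135 and 224 in WT ENU, 1.18, 1.43 and 0.917 in Tert-/- saline and 112, 225 and 111 in Tert-/- ENU. The Tert-/- saline libraries were below all others, while the ENU groups overlapped. The ENU effect was 3.77 in wild type (adjusted p = 0.00426) and 6.04 in Tert-/- (adjusted p = 0.000169), and the interaction was 2.27 (SE 0.75, 95% interval 0.63 to 3.90, adjusted p = 0.67 by limma).

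Of the apoptosis targets, Bbc3 and Siva1 had intervals below 0, while 5 of the 15 tested had estimates above 0. Bbc3, which encodes the pro-apoptotic protein PUMA, was at 37.6, 32.2 and 50.03 FPKM in WT saline, 74.4, 58.2 and 62.5 in WT ENU, 23.7, 25.0 and 31.1 in Tert-/- saline and 33.8, 22.3 and 24.3 in Tert-/- ENU. WT ENU was above all other libraries and the Tert-/- groups overlapped each other, with an interaction of -0.71 (SE 0.29, 95% interval -1.35 to -0.07, adjusted p = 0.711). Siva1, another pro-apoptotic p53 target (chromosome 12, 112644828 to 112649152), was at 5.20, 5.94 and 6.12 FPKM in WT saline, 15.5, 12.7 and 14.0 in WT ENU, 7.28, 11.2 and 6.40 in Tert-/- saline and 9.10, 8.37 and 8.95 in Tert-/- ENU. It rose by 1.16 in wild type (adjusted p = 0.0112) and its ENU effect in Tert-/- was 0.11 (adjusted p = 0.706). The interaction was -1.04 (SE 0.26, 95% interval -1.62 to -0.47, adjusted p = 0.67), and -0.83 (SE 0.15, adjusted p = 0.176) without the library, in which Siva1 was at 11.2 FPKM.

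For several strong ENU responders the estimated effects lay closer together, and the intervals bound the difference. Phlda3, a repressor of Akt signalling, was at 1.19, 1.52 and 1.42 FPKM in WT saline, 78.7, 60.3 and 75.9 in WT ENU, 1.84, 1.48 and 0.875 in Tert-/- saline and 43.1, 56.2 and 48.7 in Tert-/- ENU. The ENU libraries of wild type were above those of Tert-/- without overlap, and the interaction was -0.52 (SE 0.27, 95% interval -1.10 to 0.06). Ccng1, the gene of cyclin G1, had ENU effects of 2.67 and 2.60 and an interaction of -0.07 (95% interval -0.77 to 0.64). Eda2r, a death receptor, had effects of 2.84 and 2.63 (95% interval of the interaction -0.79 to 0.37), and Aen, a nuclease of apoptosis, 2.47 and 2.51 (-0.74 to 0.82). Mdm2, the ubiquitin ligase that restrains p53, had effects of 1.65 and 1.77 (-0.97 to 1.21), of which the first missed the threshold (adjusted p = 0.0535). Bax, a pore-forming protein of apoptosis, had effects of 1.49 and 1.70 (-0.65 to 1.08). The signs of Mdm2, Aen, Ccng1 and Bax turned in at least 1 alternative setting.

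**Figure D4:**
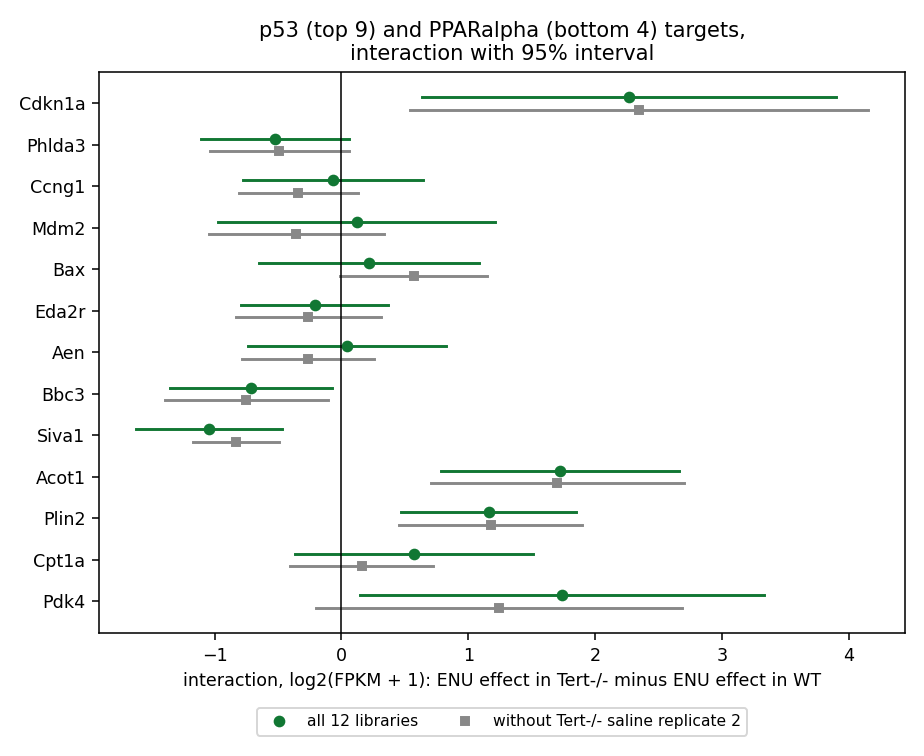
Interaction with its 95% interval for 9 p53 targets and 4 PPARalpha targets, with all 12 libraries (green) and without Tert-/- saline replicate 2 (grey). The intervals of Cdkn1a, Bbc3, Siva1, Acot1 and Plin2 exclude 0 in both, and no gene passed after adjustment over all genes tested.

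Targets of the nuclear receptor PPARalpha, which governs fatty acid oxidation in fasting liver, had more estimates above 0 than below, as had all genes tested when all 12 libraries were used. Of 33 tested, 14 rose after ENU in Tert-/- (all genes 8.13%) and 0 in wild type (all genes 0.748%). Without Tert-/- saline replicate 2, 20 rose in Tert-/- (all genes 13%) and 15 in wild type (all genes 8.58%), and none passed the interaction test in either set. The median interaction was 0.30 with 25 of 33 above 0 (all genes 0.15 and 66.1%), and 0.16 with 26 of 33 above 0 (all genes -0.01 and 48.2%) without the library. Acot1, an acyl-CoA thioesterase (chromosome 12, 84009502 to 84017670), was at 3.29, 2.76 and 6.02 FPKM in WT saline, 3.59, 6.39 and 5.46 in WT ENU, 2.52, 3.28 and 4.64 in Tert-/- saline and 13.7, 24.9 and 14.5 in Tert-/- ENU. The Tert-/- ENU libraries were above the other 9, which overlapped (interaction 1.72, SE 0.43, 95% interval 0.78 to 2.66, adjusted p = 0.67).

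Plin2, the coat protein of lipid droplets, was at 319, 326 and 435 FPKM in WT saline, 463, 474 and 335 in WT ENU, 282, 223 and 166 in Tert-/- saline and 521, 687 and 538 in Tert-/- ENU. Tert-/- libraries formed both ends of the range, below in saline and above after ENU, with an interaction of 1.16 (SE 0.32, 95% interval 0.47 to 1.85). Cpt1a, the gate of mitochondrial fatty acid import, was at 66.7, 46.4 and 44.1 FPKM in WT saline, 83.8, 105 and 83.7 in WT ENU, 53.9, 26.1 and 73.1 in Tert-/- saline and 113, 129 and 127 in Tert-/- ENU. It was highest in Tert-/- ENU, but the interaction of 0.57 (SE 0.43) was 0.16 (SE 0.26) without replicate 2, the library at 26.1. Pdk4, an inhibitor of pyruvate oxidation, ranged from 0.423 to 12.8 FPKM with overlapping groups (interaction 1.74, SE 0.73; 1.24, SE 0.65, without the library). The abundant fatty acid binding protein gene Fabp1 had an interaction of -0.33 (SE 0.46).

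Cholesterol genes had a median interaction of 0.49, with 22 of 25 above 0 (all genes 0.15), and 0.45 with 21 of 25 without Tert-/- saline replicate 2 (all genes -0.01); none passed. Insig1, a brake on sterol synthesis, was at 0.55 (SE 0.53), and 0.03 (SE 0.32) without the library.

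Iron handling and acute phase genes had similar medians. Of 19 iron genes 16 were above 0 with a median of 0.41 (all genes 0.15), and 16 with 0.36 (all genes -0.01) without the library. With all 12 libraries their estimates ran from -2.44 to 1.44. At an unadjusted p under 0.05 by limma, 3 were above 0 and 1 below 0 (4.83% and 1.96% of all genes). Hamp, the gene of the iron hormone hepcidin, was at 2274, 2439 and 1968 FPKM in WT saline, 2574, 2451 and 2750 in WT ENU, 1496, 1903 and 1843 in Tert-/- saline and 2767, 3615 and 3587 in Tert-/- ENU. Tert-/- libraries again formed both ends of the range, and the interaction was 0.70 (SE 0.24, 95% interval 0.18 to 1.22, adjusted p = 0.67). The ferritin light chain gene Ftl1 was at -0.16 (SE 0.41). Acute phase genes had a median of 0.37 (21 of 28 above 0, all genes 0.15), and 0.40 (21 of 28, all genes -0.01) without the library. It was -0.39 with the clock ratio as a covariate, a fit for which the median of all genes is not given here. That value can therefore not be set beside 0.37.

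Nuclear genes of the respiratory chain lay below 0. Of 36 tested, 4 were above 0 with a median of -0.46 (all genes 0.15), and 2 with a median of -0.29 without Tert-/- saline replicate 2 (all genes -0.01). None passed the interaction test; 6 fell after ENU in Tert-/- in both sets (all genes 1.45% and 4.21%). In saline 8 were higher in Tert-/- than in wild type (all genes 0.748%), or 17 without the library (all genes 4.71%). With the clock ratio as a covariate the median was -0.08. The median of all genes in that fit is not given here, and the ratio differed between the groups, so -0.08 cannot be set beside -0.46. The part of the clock in these values was not tested. The summed FPKM of the list was 8123 to 8866 in WT saline, 8876 to 10227 in WT ENU, 10324 to 14064 in Tert-/- saline and 8828 to 10618 in Tert-/- ENU, so that WT saline overlapped with Tert-/- ENU alone, at the upper end of its range. Of the most abundant members, the ATP synthase subunit Atp5b was at -0.24 (SE 0.20), and -0.19 (SE 0.18) without the library. The cytochrome oxidase subunit Cox6a1 was at -0.13 (SE 0.31) and changed sign, to 0.16 (SE 0.18), without it.

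Cytosolic ribosomal protein genes had values nearer to 0 without Tert-/- saline replicate 2. All 47 were below 0 with a median of -0.43 (all genes 0.15), and 10 were above 0 (21.3%, against 48.2% of all genes) with a median of -0.10 (all genes -0.01) without the library. None passed the interaction test in either set. Rplp1, a protein of the ribosomal stalk, was at 1646 FPKM in that library and at 627 to 874 FPKM in the other 11 (interaction -0.46, SE 0.35; -0.11, SE 0.18, without it). Rps2, of the small subunit, was at 1323 FPKM there and at 668 to 857 FPKM elsewhere (interaction -0.48, SE 0.25; -0.26, SE 0.13). Gene length moved in the same way: across 12434 genes Spearman's correlation of the interaction with length was 0.37, and 0.06 without the library, as a description across genes that share libraries. The length was the mean annotated transcript length. For 4119 of the 26523 expressed genes with whole reads it was instead a length fitted to the FPKM values. The part of length in the single values was not tested.

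**Figure D5:**
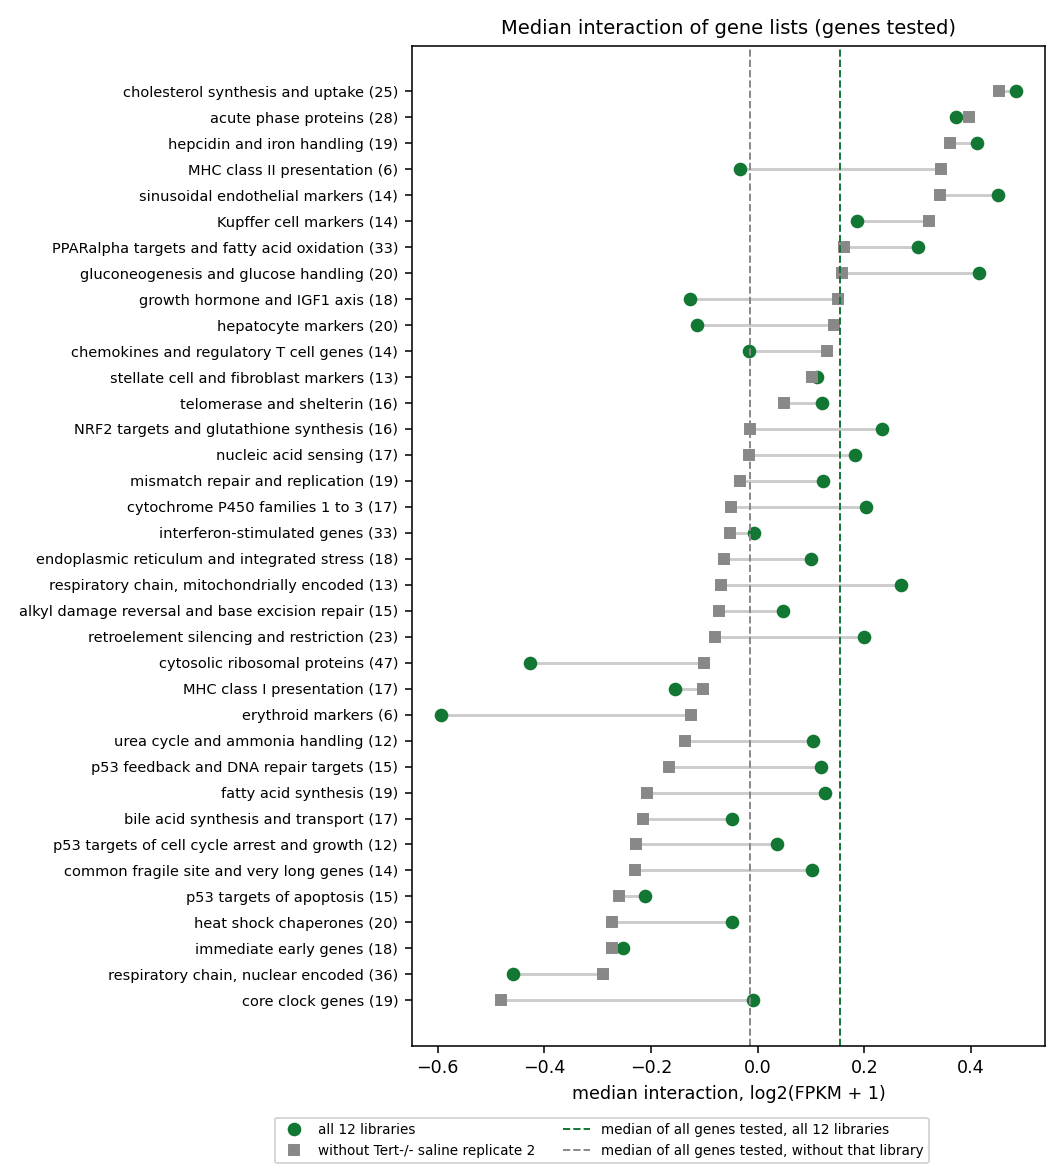
Median interaction, log2(FPKM + 1), of gene lists with at least 5 tested genes (number in brackets), with all 12 libraries (green circles) and without Tert-/- saline replicate 2 (grey squares); dashed lines are the medians of all genes tested (0.15 and -0.01). Cholesterol, acute phase and iron genes are on the right in both sets, nuclear respiratory chain genes on the left in both, while core clock genes move from -0.01 to -0.48 and erythroid markers from -0.59 to -0.12 between the sets.

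The study's title concerns endogenous retroviruses and immunity. No member of the lists on these subjects passed the interaction test, as no gene tested did, so this is no result about these subjects. Levels of endogenous retroviruses themselves were not examined here. The median interaction was -0.01 for 33 interferon-stimulated genes (16 above 0; all genes 0.15), and -0.05 (14 above 0; all genes -0.01) without Tert-/- saline replicate 2. Its most abundant members were the antiviral membrane protein Bst2 (-0.46, SE 0.38) and Ifi27 (0.05, SE 0.53, and of changing sign between scalings). For 23 genes of retroelement silencing and restriction the median was 0.20 (18 above 0) against 0.15 for all genes, and -0.08 (9 above 0) against -0.01 without the library. The corepressor Trim28 was at -0.06 (SE 0.22) and the histone methyltransferase Ehmt2 at 0.12 (SE 0.18). Of 6 MHC class II genes 3 were above 0 with a median of -0.03 (all genes 0.15), and 6 with a median of 0.34 (all genes -0.01) without the library; H2-Ab1 was at 0.23 (SE 0.52) and the invariant chain gene Cd74 at -0.14 (SE 0.62). For 16 telomerase and shelterin genes, which lengthen and cap chromosome ends, the median was 0.12 (10 above 0; all genes 0.15), and 0.05 (8 above 0; all genes -0.01) without the library.

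No marker of other liver cells passed the interaction test, as no gene tested did. In bulk liver fewer cells of a type and less RNA per cell cannot be told apart. Of 14 sinusoidal endothelial markers 13 were above 0 with a median of 0.45 (all genes 0.15), and 12 with a median of 0.34 (all genes -0.01) without Tert-/- saline replicate 2. Their summed FPKM was 192 to 239 in WT saline, 124 to 186 in WT ENU, 119 to 143 in Tert-/- saline and 113 to 126 in Tert-/- ENU. WT saline was thus above all other libraries. Stab1, a scavenger receptor of these cells, was at 34.7, 33.5 and 33.0 FPKM in WT saline, 28.9, 35.2 and 29.2 in WT ENU, 15.1, 21.1 and 23.5 in Tert-/- saline and 25.3, 29.9 and 26.4 in Tert-/- ENU (interaction 0.57, SE 0.24), with Tert-/- saline below the other 9. Clec4g, a lectin of the same cells, was at 0.04 (SE 0.39), and at -0.15 after median-ratio rescaling.

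Kupffer cell markers, 14 tested, had a median of 0.19 (all genes 0.15), or 0.32 (all genes -0.01) without the library, and summed to 489 to 822 FPKM in WT saline, 254 to 638 in WT ENU, 284 to 547 in Tert-/- saline and 232 to 284 in Tert-/- ENU. The sums reached lowest in Tert-/- ENU, where they overlapped with those of WT ENU, and were widely spread in the other groups. Of 11 neutrophil markers 3 were tested, with interactions above 0 and a median of 1.03 (all genes 0.15); S100a9 ranged from 0.329 to 18.1 FPKM and S100a8, listed at 0 in 1 Tert-/- ENU library, up to 16.1 FPKM, both highest in 2 WT saline libraries (S100a9 1.03, SE 0.96; S100a8 1.08, SE 0.89). Of 11 erythroid markers 6 were tested, with a median of -0.59 (all genes 0.15), or -0.12 (all genes -0.01) without the library, and sums of 229 to 427 FPKM in WT saline, 140 to 154 in WT ENU, 200 to 850 in Tert-/- saline and 115 to 137 in Tert-/- ENU. These markers did not all move together. Alas2 made up most of each ENU sum, at 96.7 to 104 FPKM in WT ENU and 72.6 to 109 in Tert-/- ENU. It was at 71.9 to 82.5 FPKM in WT saline and 72.4 to 91.3 in Tert-/- saline. Hbb-bs, a globin gene, was at 89.3 to 204 FPKM in WT saline and 19.6 to 31.5 in WT ENU. In Tert-/- it was at 72.5 to 437 FPKM in saline and 10.5 to 33.1 after ENU. The erythroid membrane gene Epb42 stayed under 0.1 FPKM. The part of these cells in the interaction values was not tested.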

How the data were processed

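Liver RNA (TRIzol, 3 µg, NEBNext Ultra kit, per the labels' protocols) was sequenced in 12 libraries. The submitters' processing notes name HISAT2 (alignment), HTSeq (counting) and the build mm10. Versions, annotation release and strandedness were not given in the sources used here, so reads of antisense neighbours cannot be told apart. The authors deposited one table of FPKM values, scaled for gene length and library size; 1 line of it had been emptied and is not analysed here. Of its 49584 identifiers, 49325 occurred in GENCODE M21; 95 symbols were repeated and genes were followed by identifier. All per-sample columns were used.

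Since FPKM values are not counts, log2(FPKM + 1) values were fitted with limma 3.58.1 (R 4.3.3), a model of 4 group means with a mean-variance trend, two-sided tests and Benjamini-Hochberg adjustment over all genes tested. The contrast was (Tert-/- ENU minus Tert-/- saline) minus (wild-type ENU minus wild-type saline). Log2 differences understate the change of low genes. Whole reads were recovered from the FPKM steps for 26523 of 26524 expressed genes (tolerance 0.01) and gave the depths and the voom alternative. No pair of same-group libraries was as close as counting noise. The steps were tested on simulated data.

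Named genes were Tert; the 6 largest moderated statistics in each direction per fit, since none passed, with at least 1 FPKM in the highest group and a curated symbol; the 2 most abundant members of a list; and 12 chosen p53 and PPARalpha targets. Some genes that this rule names are not reported here. Any other gene is said to be chosen after its values were seen. There were 41 gene lists, described by counts and medians without a test; 36 with at least 5 tested members are plotted. The members and lists were chosen with earlier results of these data known. Promoter sequences are those of RefSeq (GRCm38.p6). Alternatives were another pseudocount, other filters, scalings, library weights, no trend, a replicate block, a clock covariate, voom on recovered reads and leaving out each library.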

Additional observations from a re-analysis of the deposited data

How the results depend on the processing

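The count of genes past the interaction threshold was 0 with all 12 libraries and 0 without Tert-/- saline replicate 2, and stayed 0 at a pseudocount of 0.1, under a stricter filter, median-ratio and quantile scaling, no trend, the clock covariate and voom on recovered reads. It was 1520 with REML library weights on all 12 libraries (733 higher, 787 lower), a fit that gave Tert-/- saline replicate 1 a weight of 35.4 and replicate 2 one of 0.02, so that 1 library stood for the group. With weights estimated gene by gene, added after the data were seen, it was 9 (Ppp1r10, Zfp574, Shank2, Ints1 and Map3k11, and Gm12473, mt-Atp8, Gm15920 and Tle6, the last 4 chosen after their values were seen). Here too Tert-/- saline rested mostly on replicate 1, with weights of 2.20, 0.045 and 0.48 for replicates 1, 2 and 3. Both weightings gave a count of 0 for the 11 libraries. Without the filter on low values it was 0 with all 12 libraries and 2 with the 11 (Gm24854 and Mir1950, both chosen after their values were seen). Leaving out each library in turn gave 0 from all 12 libraries, and 0 to 2 from the 11: 2 without wild-type saline replicate 2 (Gadd45b and Gm12473), 1 without wild-type ENU replicate 1 (Tmem39a) and 1 without Tert-/- saline replicate 1 (Hamp2), where the lone Tert-/- saline library is assumed to vary like the others; Gm12473, Tmem39a and Hamp2 were chosen after their values were seen.

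Same-numbered libraries of different groups had correlations of -0.16 to 0.21, over 0.1 in 7 of 18 pairs. Their mean was 0.046, against -0.023 for libraries with other numbers. These values do not settle whether the replicate numbers pair the libraries. With the replicate block the count was 0 in both sets, with 786 and 1499 genes at an unadjusted p of 0.05.

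Of 1311 values of 57 named genes under alternatives, 1239 kept their sign, 72 reversed and 32 newly passed. Reversals under median-ratio scaling were Rmnd5a -0.13, Ifi27 -0.14, Ehmt2 -0.066, Clec4g -0.15, Mdm2 -0.047 and Aen -0.11; under quantile scaling Rmnd5a -0.068, Mdm2 -0.075 and Aen -0.19. With voom they were Tert 0.15, Rmnd5a -0.12, Ifi27 -0.15, Ehmt2 -0.070, Clec4g -0.14, Mdm2 -0.063 and Aen -0.13, and at a pseudocount of 0.1 Tert 0.23. With REML weights they were Rmnd5a -0.58, Insig1 -0.071, Bhlhe40 -0.015, Ifi27 -0.12, H2-Ab1 -0.026, Ftl1 0.10, Cox6a1 0.021, Mdm2 -0.31 and Aen -0.29, and with gene-by-gene weights Rmnd5a -0.55, Cd74 0.086, Ftl1 0.14, Cox6a1 0.062, Mdm2 -0.34 and Aen -0.28. With the clock covariate they were Rmnd5a -0.38, Fabp1 0.62, Bhlhe40 -0.28, Trim28 0.30, Cd74 0.78, Ftl1 0.23, Cox6a1 0.21, Mdm2 -0.64, Aen -0.23, Pdk4 -0.21, Dbp 0.10 and Arntl -0.24, the last pair being what the covariate is made of. Leaving out single libraries reversed Aen (-0.26 to 0.20), Bax (-0.15 to 0.57), Ccng1 (-0.34 to 0.17), Cd74 (-0.62 to 0.36), Clec4g (-0.22 to 0.40), Cox6a1 (-0.34 to 0.16), Ftl1 (-0.46 to 0.26), H2-Ab1 (-0.19 to 0.53), Ifi27 (-0.47 to 0.52), Mdm2 (-0.36 to 0.41), Rmnd5a (-0.65 to 0.40), Tert (-0.34 to 0.0086) and Trim28 (-0.17 to 0.073). For these the cause was not tested. Low read numbers limit single values such as those of Snord72 (2 to 15 reads per library) and Gadd45b (15 to 316).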

Other observations

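Other liver functions gave median interactions, on the log2(FPKM + 1) scale, on both sides of the median of all genes (0.15 with all 12 libraries, -0.01 without Tert-/- saline replicate 2), and none of their members passed the test. Of all genes tested, 66.1% had an interaction above 0 with all 12 libraries and 48.2% without that library, and the counts in parentheses are for all 12. Immediate early genes, the fast responders to growth factors and stress, had a median of -0.25 (7 of 18 above 0), and -0.27 without that library. Heat shock chaperones were at -0.05 (9 of 20) and -0.27, genes of bile acid synthesis and transport at -0.05 (7 of 17) and -0.21, and MHC class I genes at -0.15 (6 of 17) and -0.10; these lists kept a negative median under median-ratio and quantile scaling as well. Gluconeogenesis and glucose handling genes were at 0.42 (14 of 20) and 0.16, positive under the same scalings.

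For the next lists the sign of the median changed between scalings or between the sets of libraries. Genes of alkyl damage reversal and base excision repair, pathways that act on alkylated bases, were at 0.05 (8 of 15) and -0.07. Mismatch repair and replication genes were at 0.12 (13 of 19) and -0.03, and common fragile site and very long genes at 0.10 (8 of 14) and -0.23. Fatty acid synthesis genes were at 0.13 (12 of 19) and -0.21, NRF2 and glutathione genes at 0.23 (12 of 16) and -0.01, and cytochrome P450 genes at 0.20 (11 of 17) and -0.05. Mitochondrially encoded respiratory chain genes were at 0.27 (11 of 13) and -0.07, beside -0.46 and -0.29 for the nuclear genes of the same complexes.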
